A study of Mus musculus with 7 samples.

Results

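The genes described here are the mouse Zfp genes of chromosomes 7, 13 and 17, which carry some of the largest arrays of KRAB zinc finger genes in the mouse genome. They were chosen by symbol and position, as every gene in the count files named Zfp followed by a digit and lying on those chromosomes. This gave 165 of 22556 genes, 86 on chromosome 7, 36 on chromosome 13 and 43 on chromosome 17. GENCODE classed 161 of them as protein coding, and 1 of the others, Zfp85os, is the antisense transcript of Zfp85.

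KRAB zinc finger proteins bind DNA through a row of C2H2 fingers and recruit the corepressor TRIM28 through their KRAB domain. TRIM28 in turn brings the H3K9 methyltransferase SETDB1, heterochromatin protein 1 and DNA methylation to the bound site, which is how many retrotransposons and imprinted loci are kept repressed in mouse embryonic stem cells (mESCs). The family grows by tandem duplication, so neighbouring genes are often close copies that differ between mouse strains.

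Chromatin-associated RNA sequencing (ChrRNA-seq), which captures nascent, still intron-containing transcripts, was performed on XX mESCs from an F1 cross of 129/Sv (*Mus musculus domesticus*, Dom) and CAST/EiJ (*Mus musculus castaneus*, Cast). Line iXist-ChrX-Dom (clone A11B2, 4 libraries) carries a doxycycline-inducible TetOn promoter at Xist on the Dom X, and line iXist-ChrX-Cast (clone C7H8, 3 libraries) carries it on the Cast X. Cells of both lines were undifferentiated and had received 1 µg/mL doxycycline for 10 days, so no uninduced library enters any comparison below, and the labels give 1 clone per line. They were grown on mitomycin-inactivated fibroblast feeders that were removed by pre-plating. The question asked here is how these autosomal Zfp genes vary between the lines, between libraries and between the parental alleles.

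The libraries held 14877384 to 24309806 counted fragments, of which 44.2% to 46.4% could be assigned to a parental genome. The Zfp genes of the 3 chromosomes took 0.625% of all fragments. Pluripotency markers were high (8 genes, summed 1400.0 to 1810 CPM, fragments scaled to an equal library size), while 8 fibroblast markers summed to 23.4 to 36.4 CPM and 4 neural markers to 28.5 to 56.3 CPM. Of the neural markers Sox1 was at 0 in all 7 libraries, and Pax6, Nes and Tubb3 were present in each. The description of iXist-ChrX-Dom replicates 3 and 4 names day 1 where their titles and treatment name 10 days, and the files of iXist-ChrX-Cast replicates 1 and 2 carry the clone name C8H8.

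By position, 128 of the 165 genes fell into 12 clusters, defined as runs of at least 4 genes whose starts lie within 500 kb of the next, and 37 lay outside. Clusters are named here by chromosome and a letter in map order. The largest were 13A with 22 genes (chr13:67038594-67827000, mm10), 17A with 20 (chr17:21008941-23599487), 7G with 15 (chr7:29768552-30169727), 7E with 14 (chr7:24081897-25227505) and 17B with 13 (chr17:32765497-33631714).

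Translated GENCODE coding sequences were at hand for 161 of the genes. The letters of the KRAB A-box core were found in 101 of these proteins (62.7%), against 34.1% of the proteins of 179 other autosomal Zfp genes and 2.1% of 21877 mouse proteins. Proteins without a match can still hold a diverged KRAB domain. The median protein carried 11 matches to the C2H2 spacing, and 148 carried at least 3. Among those with no match were Zfp36, Zfp36l2, Zfp346 and Zfp935, the last with a KRAB core match. Zfp36 and Zfp36l2 belong to the CCCH zinc finger proteins that bind AU-rich elements and destabilise mRNA. These 2 share with the KRAB genes the symbol rather than the function. The KRAB core was frequent in 13A (19 of 21 proteins), 17A (17 of 20) and 17B (11 of 13), and had no match in 7A or 7F.

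Levels are given first, as CPM divided by the gene's length in kb, a scale on which genes can be compared. The median over the 165 genes was 1.21 CPM per kb, the same as for 186 other autosomal Zfp genes and above the 0.203 of the whole table. Of the 22556 genes of the whole table, 2066 had no fragment in any library and 7527 had a mean count under 10. Among the 165, these numbers were 0 and 5. Values spanned more than 4 orders of magnitude. Zfp936 (cluster 7H, chr7:43177588-43192109) had the highest level, 26.5 ± 2.26 CPM per kb (SD, n = 7), followed by Zfp57 (chr17:37001163-37010729) with 26.2 ± 3.62 (SD, n = 7). Zfp57 protects the methylation of imprinting control regions. These neighbours in the order did not differ beyond their spread.

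Below them stood Zfp229 at 13.98 ± 0.893, Zfp459 at 10.8 ± 1.03 and Zfp945 at 10.2 ± 1.86 CPM per kb (SD, n = 7 each), members of 17A, 13A and 17A. The libraries of Zfp459 (9.71 to 12.3) and Zfp945 (8.02 to 12.7) overlapped. Zfp110, whose protein is known as a partner of the neurotrophin receptor, followed with 9.05, then Zfp808 with 7.93, Zfp367 with 7.63, Zfp871 with 7.37 and Zfp646 with 6.58 CPM per kb. Of these 10 genes, 8 matched the KRAB core, all but Zfp367 and Zfp646. At the other end, Zfp366 and Zfp575 had mean counts of 1.7 and 0.3 fragments per library, and Zfp575 had no fragment in 5 of 7 libraries.

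**Figure D1:**
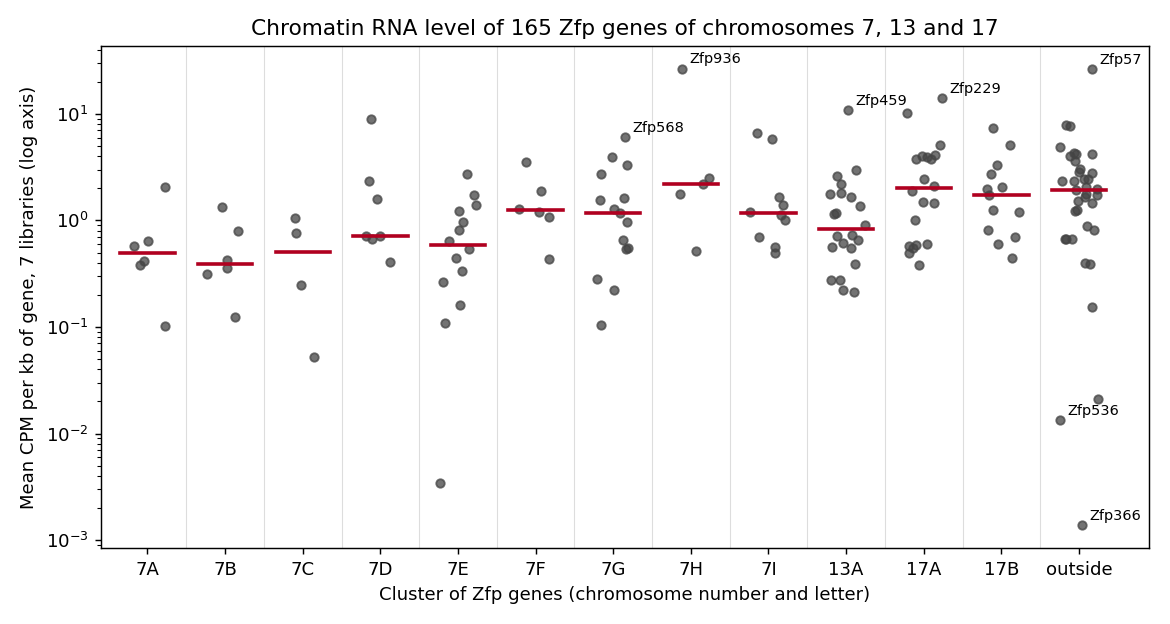
Mean level of each of the 165 Zfp genes (CPM per kb of gene, mean of 7 libraries, log axis) by cluster; each point is 1 gene and each bar is the cluster median. Cluster medians ran from 0.392 (7B) to 2.21 (7H), and single genes lay far from their cluster median, as Zfp936 at 26.5 in 7H.

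The promoters of the highest and lowest genes are shown to set CG content beside level. They are the 250 bases before the RefSeq start (GRCm38.p6, 5′ to 3′ on the gene's strand), with each CG in capitals. The genes are the first and second highest and the second lowest and lowest among those with a RefSeq start near the start in the count files and a mean count of at least 10.

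Zfp936, chr7:43177340-43177589, + strand: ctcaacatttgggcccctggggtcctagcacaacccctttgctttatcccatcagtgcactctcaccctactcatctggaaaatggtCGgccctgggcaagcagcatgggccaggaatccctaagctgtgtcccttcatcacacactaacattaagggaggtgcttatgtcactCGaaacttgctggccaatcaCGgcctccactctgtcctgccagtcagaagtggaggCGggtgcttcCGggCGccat
Zfp57, chr17:37000913-37001162, + strand: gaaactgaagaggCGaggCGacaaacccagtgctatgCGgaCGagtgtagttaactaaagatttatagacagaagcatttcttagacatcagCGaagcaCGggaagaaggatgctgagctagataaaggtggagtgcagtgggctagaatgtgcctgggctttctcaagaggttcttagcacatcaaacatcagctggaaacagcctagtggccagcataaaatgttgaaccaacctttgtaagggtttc
Zfp541, chr7:16071595-16071844, + strand: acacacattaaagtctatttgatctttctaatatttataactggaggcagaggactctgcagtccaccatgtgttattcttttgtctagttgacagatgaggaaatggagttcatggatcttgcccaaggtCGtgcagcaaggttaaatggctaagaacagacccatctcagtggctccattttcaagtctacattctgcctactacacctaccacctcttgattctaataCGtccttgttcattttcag
Zfp536, chr7:37769753-37770002, - strand: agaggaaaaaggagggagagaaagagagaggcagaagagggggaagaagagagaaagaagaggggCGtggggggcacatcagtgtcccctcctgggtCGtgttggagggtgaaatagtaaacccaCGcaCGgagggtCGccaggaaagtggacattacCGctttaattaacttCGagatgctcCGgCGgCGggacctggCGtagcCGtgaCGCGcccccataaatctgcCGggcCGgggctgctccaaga

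The windows of Zfp936 and Zfp57 held 6 CG each, that of Zfp541, at 0.0209 CPM per kb, held 2, and that of Zfp536, at 0.0134, held 16. Across the 143 genes with a window, the median was 10 CG and 51.0% had at least 10, against 38.2% of 27025 RefSeq genes. The 2 shares rest on unlike windows. For the RefSeq genes the first listed window was taken, and for the Zfp genes the one nearest the start in the count files. Level did not follow CG count. Genes with at least 10 CG had a median of 1.21 CPM per kb (n = 73) and those with fewer 1.19 (n = 70), and over the 143 genes Pearson's r with log2 level was -0.016 (Spearman's rho -0.022), given as a description since the genes share libraries and, within clusters, ancestry.

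Between the lines, no gene of the 160 that passed the filter on low counts was called between iXist-ChrX-Dom and iXist-ChrX-Cast at an adjusted p under 0.05 (edgeR quasi-likelihood test, Benjamini-Hochberg over all genes), where 2.92% of 15186 genes were called. The unadjusted p was under 0.05 for 8 genes. The median absolute log2 difference was 0.11, against 0.19 over all genes tested, and no gene reached 2-fold. Among the other genes of chromosomes 7, 13 and 17, 23 of 2353 were called (0.977%), with a median absolute difference of 0.16. Of the other genes inside the 12 clusters, 0 of 79 were called. The share of 0 in the Zfp genes was thus near that of their surroundings. With 3 and 4 libraries and a median SE of 0.15 on the log2 scale, small differences could not be detected. This fit held no term for replicate number or set of libraries, so the spread between sets enters that SE. The 5 genes that were not tested were Zfp366, Zfp389, Zfp575, Zfp579 and Zfp773.

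The smallest p belonged to Zfp112, a KRAB gene of cluster 7E (chr7:24112320-24127952). Its levels were 3.24, 2.52, 3.04 and 3.57 CPM in the iXist-ChrX-Dom libraries and 1.48, 2.19 and 1.40 CPM in the iXist-ChrX-Cast libraries. The groups did not overlap, and the log2 difference was 0.86 ± 0.24 (SE, edgeR adjusted p = 0.0909). Here and below, the share of all genes whose groups or sets do not overlap was not counted. Genes picked for a small p tend to separate, so a lack of overlap is no support of its own.

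Zfp131, a BTB domain zinc finger gene outside the clusters (chr13:119765187-119790805), was next. It stood at 91.0, 92.6, 106 and 99.5 CPM in iXist-ChrX-Dom and at 132, 127 and 111 CPM in iXist-ChrX-Cast. Every iXist-ChrX-Cast library was above every iXist-ChrX-Dom library, with a log2 difference of -0.34 ± 0.10 (SE, edgeR adjusted p = 0.105). With the replicate number as a block, Zfp131 was the only Zfp gene of the 3 chromosomes called (log2 difference -0.36 ± 0.11, edgeR adjusted p = 0.0333), and with DESeq2 both Zfp112 (adjusted p = 0.0437) and Zfp131 (adjusted p = 0.0491) were. The libraries also fall into sets, replicates 1 and 2 against 3 and 4, that are unevenly spread over the lines. With the set as a covariate, 3 genes were called by edgeR, Zfp131 (adjusted p = 0.0147), Zfp112 (adjusted p = 0.0207) and Zfp619 (adjusted p = 0.0496). Each of these fits also called more genes of the whole table than the main fit did, with totals given in the last section. In each, the called share of the Zfp genes was below that of all genes.

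The other 8 genes with the smallest p were Zfp36l2, Zfp213, Zfp738, Zfp606, Zfp553, Zfp459, Zfp54 and Zfp629, with log2 differences from -0.57 (Zfp213) to -0.21 (Zfp459) and edgeR adjusted p of 0.181 to 0.319. All 8 had the lower mean in iXist-ChrX-Dom. Zfp36l2 gave 10.7, 11.1, 9.75 and 10.96 CPM in iXist-ChrX-Dom and 15.3, 15.8 and 11.6 CPM in iXist-ChrX-Cast, again without overlap. Of the 22 genes of cluster 13A, 18 had a log2 difference below 0 (median -0.15), and of the 20 of 17A, 16 did (median -0.09), where 7666 of 15186 genes lay below 0. None of them passed the test.

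Among genes with a known role, Zfp57 measured 243, 191, 243 and 255 CPM in iXist-ChrX-Dom and 288, 295 and 237 CPM in iXist-ChrX-Cast, overlapping groups with a log2 difference of -0.23 ± 0.13 (SE, edgeR adjusted p = 0.379). Zfp568, which represses a placental Igf2 transcript in the embryo, lay between 252 and 285 CPM in all 7 libraries, and its log2 difference was -0.05 ± 0.09. Zfp819, which represses retrotransposons in pluripotent cells, lay between 24.6 and 30.2 CPM.

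Zfp143, a transcription factor bound at many promoters, lay between 59.2 and 74.5 CPM, and Zfp322a, a pluripotency-associated factor, between 60.7 and 79.6 CPM. Zfp708, a KRAB protein that binds a class of retrotransposon, lay between 11.9 and 17.3 CPM, Zfp110 between 129 and 161 CPM, and the lowly transcribed Zfp30 between 1.81 and 2.53 CPM. Zfp36 lay between 1.41 and 4.21 CPM. None of these 9 was called between the lines.

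The corepressors with which KRAB proteins work were tested from a list of 16 genes, and 0 were called between the lines (1 at an unadjusted p under 0.05, edgeR). Trim28 lay between 473 and 534 CPM in iXist-ChrX-Dom and between 443 and 601 CPM in iXist-ChrX-Cast, with a log2 difference of -0.08 (edgeR adjusted p = 0.813). Setdb1 lay between 143 and 167 CPM over both lines. Of the 8 pluripotency markers, 1 was called between the lines (12.5%, background 2.92%). This was Tbx3, lower in iXist-ChrX-Dom (log2 difference -1.06, edgeR adjusted p = 0.00316). Log2 differences were below 0 for 7 of the 8 and above 0 for 1. Of the neural and fibroblast markers, 3 and 7 were tested and 0 called, with Pax6 at 1.18 (edgeR adjusted p = 0.0905). The part of cell makeup in the line differences of the Zfp genes was not tested.

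**Figure D2:**
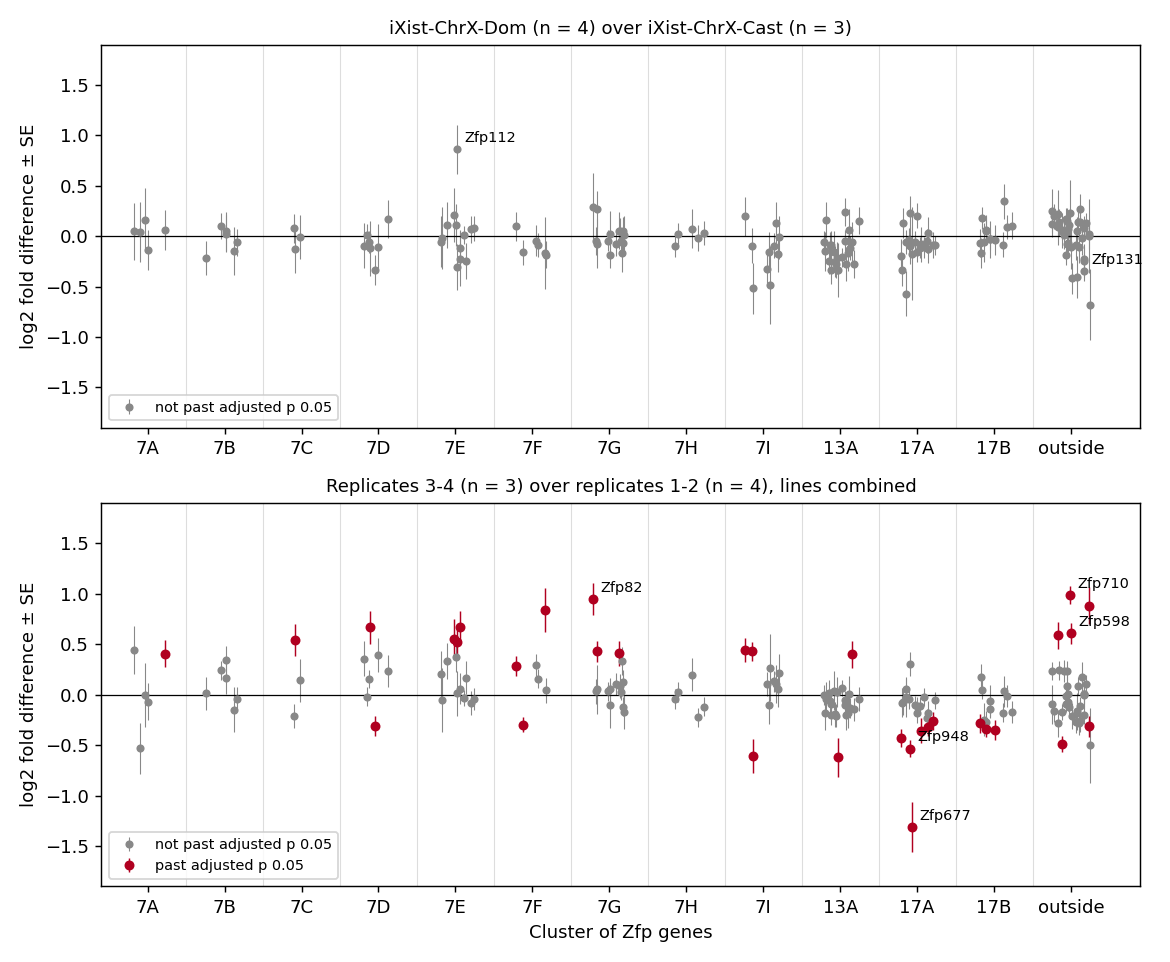
Log2 fold differences with SE (vertical axes) of the 160 tested Zfp genes by cluster, between lines (upper panel) and between replicate sets (lower panel); red points pass an adjusted p of 0.05. No gene passed between lines, whereas 33 passed between replicate sets, with Zfp710 and Zfp82 highest and Zfp677 lowest.

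More of these genes were called between sets of libraries than between the lines. The replicate numbers part the libraries in the same way as the naming of the files, with replicates 1 and 2 of each line against replicates 3 and 4, and the labels name no batch. The label conflicts given above follow the same split, since the day 1 descriptions belong to iXist-ChrX-Dom replicates 3 and 4 and the C8H8 file names to iXist-ChrX-Cast replicates 1 and 2. Induction time, clone and any other difference between the sets cannot be told apart here. Of the 160 Zfp genes, 33 were called between these sets with the line as a covariate (edgeR, adjusted p under 0.05), which is 20.6% where 30.3% of all genes were called. Levels were higher in replicates 3 and 4 for 18 genes (background 16.3% of all genes) and lower for 15 (background 14% of all genes). Without iXist-ChrX-Cast replicate 3, the one library of its line in the second set, 17 were called.

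Zfp710 (chr7:80024814-80092751), outside the clusters, had the smallest p. It stood at 72.7 and 73.4 CPM in replicates 1 and 2 of iXist-ChrX-Dom, and at 74.9 and 65.9 CPM in those of iXist-ChrX-Cast. Replicates 3 and 4 of iXist-ChrX-Dom gave 128 and 163 CPM, and replicate 3 of iXist-ChrX-Cast gave 138 CPM. The sets did not overlap in either line, and the log2 difference was 0.99 ± 0.09 (SE, edgeR adjusted p = 7.13e-06). A gene on the opposite strand overlapped 18.5% of the span of Zfp710, and counting used strand.

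Zfp82, a KRAB gene of cluster 7G, lay between 2.85 and 3.78 CPM in replicates 1 and 2 and between 6.16 and 7.19 CPM in replicates 3 and 4 (log2 difference 0.95 ± 0.16, SE, edgeR adjusted p = 0.000613). Of the 81-base stretches of its transcript, 94.3% are shared with another GENCODE gene, most often Gm26920. Whether Gm26920 lies at the same place was not tested, so how far this affects the counts of Zfp82 is not known. Zfp598, which marks collided ribosomes, was also higher, with 26.2 to 33.0 CPM in the first set and 37.8 to 50.8 CPM in the second (0.61 ± 0.10, edgeR adjusted p = 0.000618). In both genes the sets were separate.

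Zfp948, of cluster 17A, and Zfp367, outside the clusters, were lower in replicates 3 and 4. Zfp948 lay between 91.6 and 95.6 CPM in the first set and between 60.2 and 70.7 CPM in the second (log2 difference -0.53 ± 0.08, SE, edgeR adjusted p = 0.00033). Zfp367 lay between 167 and 182 CPM and then between 111 and 141 CPM (-0.49 ± 0.08, edgeR adjusted p = 0.000619). Neither gene's sets overlapped. Among the other called genes were Zfp296, linked to pluripotency, at a log2 difference of 0.88, the mRNA-decay gene Zfp36 at 0.84, and Zfp677 at -1.31. Zfp677 stood at 10.8 and 4.55 CPM in replicates 1 and 2 of iXist-ChrX-Dom and at 8.01 and 8.25 CPM in those of iXist-ChrX-Cast, against 3.36, 3.52 and 2.70 CPM in the second set, without overlap. Of the 10 genes of highest level, Zfp646 was also called higher (0.43) and Zfp945 (-0.43), Zfp367 and Zfp871 (-0.34) lower.

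By chromosome, the called genes of chromosome 7 were higher in replicates 3 and 4 in 16 of 19 cases, while those of chromosome 17 were lower in 10 of 11. Among the other genes of chromosome 17, 159 were called higher and 49 lower, and among those of chromosome 7, 254 higher and 80 lower. On chromosome 13, 1 Zfp gene was called higher and 2 lower, where 43 other genes were called higher and 107 lower. The called shares of the Zfp genes were 22.9%, 8.82% and 25.6% on chromosomes 7, 13 and 17, against 30.3% of all genes. In clusters 17A and 17B, 9 Zfp genes were called, and each was lower in replicates 3 and 4 (6 in 17A, 3 in 17B). Of 100 tested genes with a KRAB core match, 7 were called higher and 10 lower, and of 57 whose protein had none, 11 higher and 5 lower, a difference that was not tested.

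Several marker genes were also called between the same sets, where 30.3% of all genes were called. Of the 4 neural markers, 3 were tested and called, with Pax6 at a log2 difference of -0.97, Nes at -0.67 and Tubb3 at 0.43. The neural list summed to 28.5 to 56.3 CPM in replicates 1 and 2 and to 31.5 to 35.7 CPM in replicates 3 and 4. Of the 8 pluripotency markers, Pou5f1 (0.50) and Zfp42 (0.35) were higher, and the list summed to 1400.0 to 1810 CPM and to 1690 to 1760 CPM. Of 5 endoderm markers, 4 were tested and 3 called, Gata6 (0.73) and Gata4 (0.78) higher and Dab2 (-0.68) lower, with sums of 47.9 to 54.9 CPM and 37.5 to 40.2 CPM. Of the 8 fibroblast markers, 7 were tested and 2 called, Col3a1 (-0.68) lower and Postn (1.24) higher, with sums of 29.4 to 36.4 CPM and 23.4 to 32.2 CPM. Of the 16 corepressor genes, 5 were called, Daxx and Hdac1 higher and Cbx3, Hdac2 and Suv39h2 lower. The part of cell makeup, or of fewer cells of a type against less RNA per cell, in the differences of the Zfp genes was not tested.

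The parental alleles were compared within libraries. At least 10 allelic fragments in every library were available for 148 of the 165 genes. Relative to the typical autosomal gene, 20 of them were called at an adjusted p under 0.05 and at least 2-fold (edgeR), which is 13.5% where 13.1% of 12029 genes were called. The Cast allele was higher in 10 (background 6.13%) and the Dom allele in 10 (background 6.99%). At an adjusted p under 0.05 of any size, 91 passed (61.5%, background 58.2%), 45 with Cast higher and 46 with Dom higher. Both shares were near the background.

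The Cast share below is the share of a gene's allelic fragments assigned to Cast. Over all autosomes it lay between 48.7% and 49.6% per library, and over the Zfp genes of the 3 chromosomes between 45.0% and 46.1%. Zfp772, a KRAB gene of cluster 7C (chr7:7202122-7209998), had the largest ratio. Its Cast share was 80.0%, 88.5%, 88.9% and 85.7% in iXist-ChrX-Dom and 93.3%, 89.3% and 100% in iXist-ChrX-Cast, for a log2 Cast to Dom ratio of 3.16 ± 0.32 (SE, edgeR adjusted p = 1.52e-05). It rested on 179 allelic fragments in all, 160 of them Cast. In iXist-ChrX-Cast replicate 3 no Dom fragment was among 30, which allows a Dom share of up to 10.0%, counting error alone considered.

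Zfp429 of cluster 13A followed, with Cast shares of 88.9%, 86.5%, 73.1% and 88.0% in iXist-ChrX-Dom and 65.5%, 74.1% and 86.5% in iXist-ChrX-Cast (log2 ratio 2.18 ± 0.26, edgeR adjusted p = 5.66e-05). Zfp455, also of 13A, had shares between 63.2% and 82.8% (1.71 ± 0.19) and Zfp493 of 13A between 68.3% and 76.3% (1.48 ± 0.08). In these 3 genes all 7 libraries were above 50%.

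On the Dom side, Zfp28 (cluster 7B, chr7:6383318-6396637) had Cast shares of 16.0%, 15.9%, 23.6% and 19.5% in iXist-ChrX-Dom and 15.2%, 11.7% and 16.3% in iXist-ChrX-Cast, for a log2 ratio of -2.15 ± 0.14 (SE, edgeR adjusted p = 5.95e-07) over 96 Cast and 472 Dom fragments. Zfp955a of cluster 17B ranged from 15.6% to 25.6% (-1.78 ± 0.11), Zfp764 of 7I from 10.7% to 26.7% (-1.77 ± 0.21) and Zfp677 of 17A from 12.5% to 33.3% (-1.55 ± 0.24). Each library of these 4 genes was below 50%.

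Zfp36l2, the mRNA-decay factor, also gave mostly Dom fragments, with Cast shares of 18.2%, 16.8%, 22.4% and 22.9% in iXist-ChrX-Dom and 20.5%, 20.4% and 32.8% in iXist-ChrX-Cast (log2 ratio -1.70 ± 0.14, edgeR adjusted p = 2.71e-06). Zfp78 of 7B had a log2 ratio of -1.34 ± 0.28. It was the one called gene whose libraries lay on both sides of 50%, from 16.3% to 53.3%. Further calls were Zfp708 (1.29) and Zfp759 (1.21) with Cast higher, and Zfp959 (-1.33), Zfp628 (-1.17) and Zfp59 (-1.04) with Dom higher. Zfp59 was no longer called on the other autosomes alone or in iXist-ChrX-Cast alone, and Zfp628 was no longer called in iXist-ChrX-Dom alone.

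The best covered called genes were Zfp808 and Zfp459, each among the 10 highest levels. Zfp808 (chr13:62129890-62173936) had Cast shares between 24.0% and 29.3% over 7909 Cast and 21500 Dom fragments (log2 ratio -1.32 ± 0.05, edgeR adjusted p = 9.28e-09), and Zfp459 (chr13:67405713-67421418) between 64.3% and 69.1% over 4548 Cast and 2285 Dom fragments (1.14 ± 0.05, edgeR adjusted p = 2.13e-08). Their neighbours in level were less uneven. Zfp936 had Cast shares between 37.1% and 41.6%, Zfp229 between 41.8% and 44.3% and Zfp110 between 46.7% and 51.4%. Zfp57 had 43 allelic fragments in its thinnest library and shares from 31.7% to 50.9% (log2 ratio -0.45 ± 0.16).

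**Figure D3:**
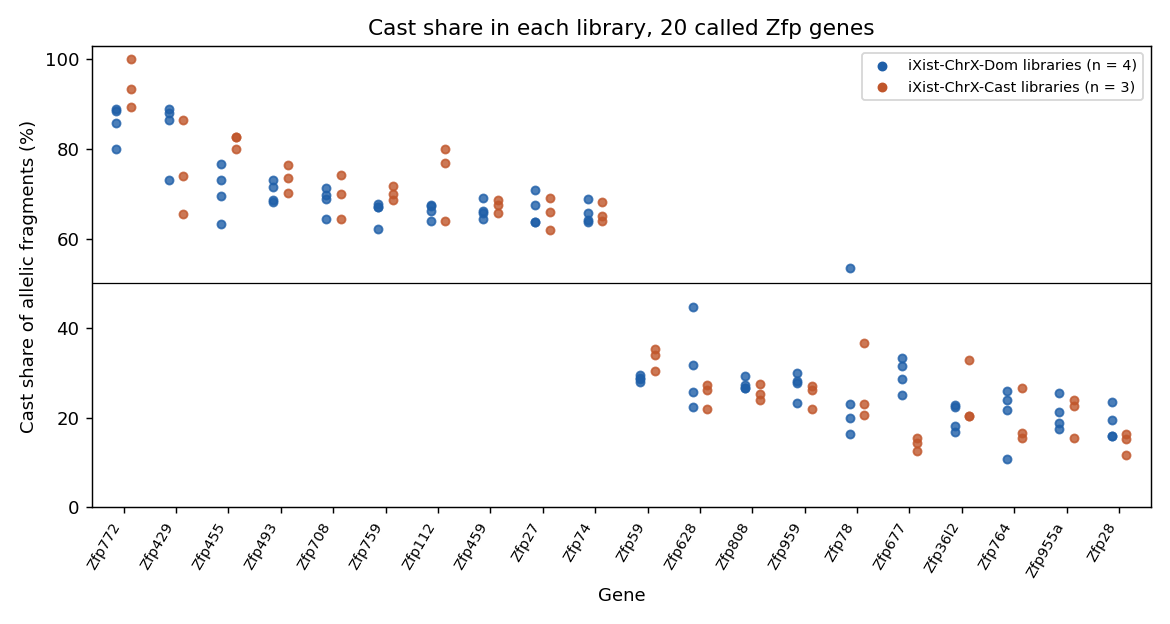
Cast share of allelic fragments (percent, vertical axis) in each library for the 20 called Zfp genes, ordered by log2 ratio; blue points are the 4 iXist-ChrX-Dom libraries and orange points the 3 iXist-ChrX-Cast libraries. In 19 genes all 7 libraries lie on one side of 50%, the exception being Zfp78.

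In cluster 13A the ratios shared a direction. All 22 of its Zfp genes had a log2 Cast to Dom ratio above 0 (median 0.46, lowest 0.00 for Zfp738). Of them, 16 passed an adjusted p under 0.05 (72.7%, where 58.2% of all genes did), each with Cast higher. At least 2-fold were 6 of these (27.3%, background 13.1%). Those 6 were Zfp429, Zfp455, Zfp493, Zfp708, Zfp759 and Zfp459. The summed Cast share of the cluster was 58.7%, 59.4%, 60.2% and 59.9% in iXist-ChrX-Dom and 60.9%, 60.6% and 60.4% in iXist-ChrX-Cast. The genes of chromosome 13 other than Zfp genes lay between 47.05% and 47.5%. The median ratio over all genes tested was 0.01, and 6106 of 12029 genes lay above 0. Zfp85, its antisense transcript Zfp85os and Zfp273 overlap genes on the opposite strand. The cluster was singled out after its values were seen, and its direction has no test of its own.

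Inside the interval of 13A lay 6 other genes, all tested. Of these, 3 passed the adjusted p with Cast higher and 2 with Dom higher (83.3% together). The summed Cast share of the 6 was 46.2% to 52.4%. Without the scaling of the alleles to the typical gene, 19 of the 22 Zfp genes had Cast higher and 12 passed in that direction against 1 in the other. When each library was left out in turn, 19 to 22 had Cast higher and 15 or 16 passed. The 2 lines fitted apart gave 21 of 22 each.

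**Figure D4:**
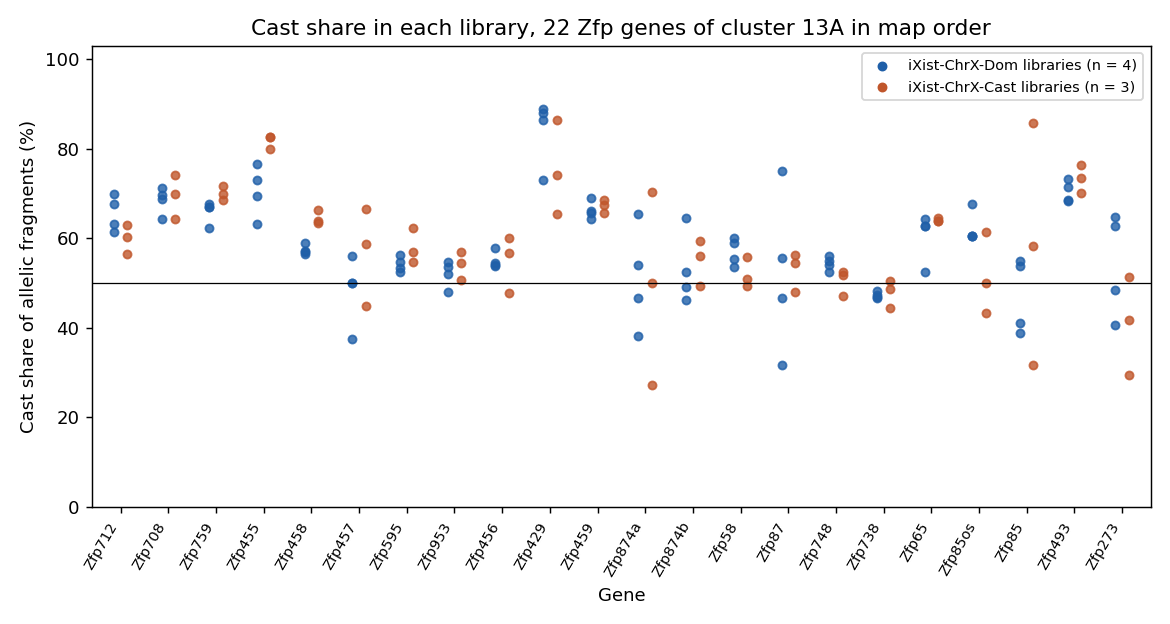
Cast share (percent, vertical axis) in each library for the 22 Zfp genes of cluster 13A in map order; blue points are iXist-ChrX-Dom libraries (n = 4) and orange points iXist-ChrX-Cast libraries (n = 3). Zfp429 and Zfp455 lie highest, Zfp738 lies at 44.6% to 50.5%, and wide columns such as Zfp85 and Zfp87 belong to genes with 12 and 16 fragments in their thinnest library.

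In the other clusters with at least 3 tested genes, ratios lay on both sides of 0, though some leaned to Dom. In 7B and 7I, 5 of 6 ratios each were below 0, and in 7F 4 of 5 were. The genes passing the adjusted p there (3 in 7B, 4 in 7I and 2 in 7F) all had Dom higher. They were 50.0%, 66.7% and 40.0% of the tested genes, where 58.2% of all genes passed. In 17A, 10 of 20 ratios were above 0, with 8 genes passing the adjusted p with Cast higher and 5 with Dom higher (65.0% together). In 17B, 9 of 13 were below 0, with 1 gene passing the adjusted p with Cast higher and 6 with Dom higher (53.8% together). In 7G, Zfp27 (1.11 ± 0.08) and Zfp74 (1.08 ± 0.06) were called with Cast higher, while 8 of its 15 ratios were below 0. Without the scaling of the alleles, these 2 no longer passed the 2-fold call. Zfp112 of 7E was called with Cast higher too (1.20 ± 0.15), at 63.9% to 80.0%.

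**Figure D5:**
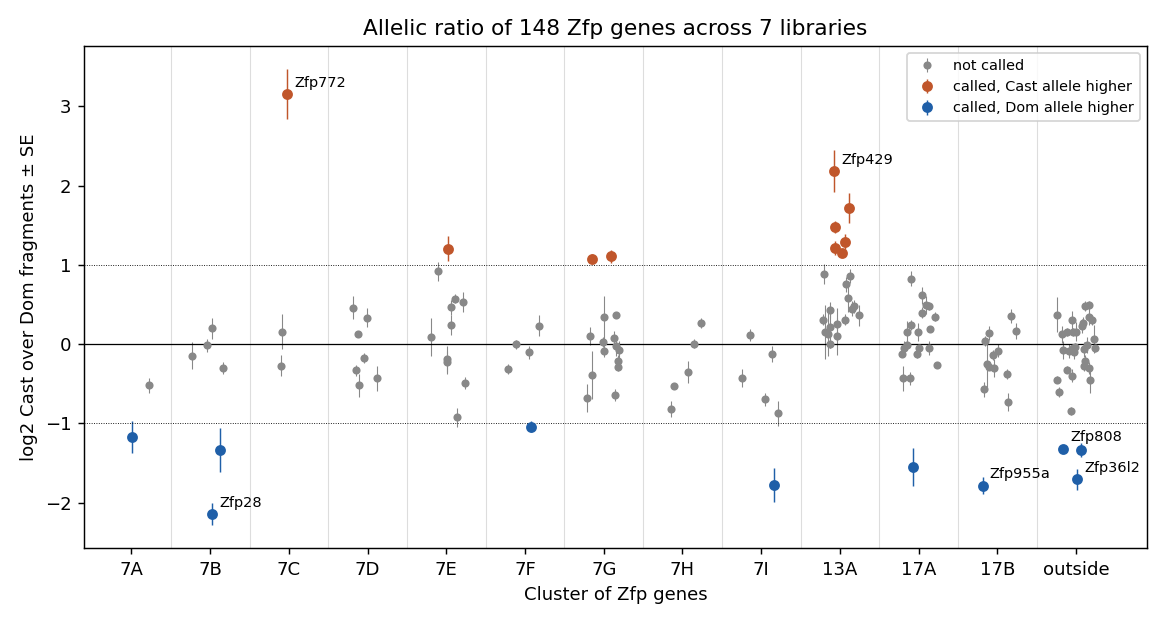
Log2 ratio of Cast to Dom fragments with SE (vertical axis) of the 148 tested Zfp genes by cluster, relative to the typical autosomal gene; orange and blue points are genes called at 2-fold or more with the Cast or the Dom allele higher, and dotted lines mark 2-fold. Zfp772 at 3.16 and Zfp28 at -2.15 are the extremes, and no point of 13A lies below 0.

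Close copies were compared directly, since reads had to align to a single place. The proteins most alike were Zfp960 and Zfp97 (96.3% identity, both outside the clusters on chromosome 17), Zfp955a and Zfp955b (95.4%, 17B) and Zfp874a and Zfp874b (92.9%, 13A). Total levels of Zfp960 and Zfp97 were close, at 52.4 to 70.3 and 50.9 to 67.8 CPM. Their alleles differed in direction, with log2 ratios of 0.48 ± 0.06 for Zfp960 and -0.85 ± 0.05 for Zfp97 (edgeR adjusted p = 0.000112 and 3.28e-07). The Cast share lay between 51.4% and 59.3% in Zfp960 and between 31.9% and 35.9% in Zfp97.

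Zfp955a, called with Dom higher, stood at 26.6 to 36.2 CPM and Zfp955b at 66.7 to 90.0 CPM, the latter with a log2 ratio of -0.38 ± 0.06. Zfp874a and Zfp874b lay at 11.2 to 15.1 and 10.5 to 12.8 CPM, with ratios of 0.13 ± 0.28 and 0.36 ± 0.13. Of the 81-base stretches of the transcripts, 74.9% of Zfp960 and 73.4% of Zfp97 were shared with another gene, 34.4% of Zfp955a and 20.9% of Zfp955b. Levels and ratios of such genes are uncertain, because exonic reads that fit both copies were not counted.

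Shared stretches were sought in the longest coding transcript of each gene, against GENCODE transcripts only. Introns, which also count, and copies outside the annotation were not searched, so how many genes this limit touched is not known. Of the 161 with a transcript, 99 shared no 81-base stretch with another gene, and 25 shared over 10%. Any gene of another name was counted, so a GENCODE gene overlapping at the same place was not told apart from a copy elsewhere. Among the 20 genes called between alleles, those over 10% were Zfp59, Zfp764, Zfp808, Zfp708, Zfp429 and Zfp955a. Zfp708 shared 100% with the GENCODE gene Gm28557, and 4.8% of its span overlapped a gene on the same strand. Whether reads of the 2 parental genomes aligned equally well in the clusters was not tested. The 8 fibroblast markers, of which the 5 tested had ratios below 0 (median -1.49), had a pooled Cast share of 18.6% at their summed level of 23.4 to 36.4 CPM. The part of feeder RNA in the Dom fragments of the Zfp genes was not tested.

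The allelic balance was then compared between the lines. The interaction of allele and line was called for 0 of 148 genes (edgeR, adjusted p under 0.05), where 15% of 12029 genes were called, and 7 genes had an unadjusted p under 0.05. In a fit without chromosomes 1, 5, 8, 12 and 14, 113 of 8843 genes were called, and 0 of the 148. Among the other genes of chromosomes 7, 13 and 17, 27 of 1852 were called (1.46%). The median SE of the interaction for the Zfp genes was 0.19 on the log2 scale, so differences of the size seen for most of them (median absolute value 0.13) were not detectable.

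Zfp945 came nearest. Its Cast shares were 46.0%, 46.4%, 47.8% and 46.8% in iXist-ChrX-Dom and 43.9%, 42.4% and 45.3% in iXist-ChrX-Cast, which did not overlap, and its interaction was 0.19 on the log2 scale (edgeR adjusted p = 0.0574). Zfp677 had the largest positive value, 1.31, with Cast shares of 25% to 33.3% in iXist-ChrX-Dom and 12.5% to 15.4% in iXist-ChrX-Cast from as few as 13 allelic fragments a library (edgeR adjusted p = 0.140). It and Zfp458 were called with limma in place of edgeR (adjusted p = 0.00265 and 0.0124). Without iXist-ChrX-Cast replicate 3, 3 genes were called, Zfp808, Zfp945 and Zfp40.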

How the data were processed

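ChrRNA-seq libraries of 2 lines were analysed (iXist-ChrX-Dom, 4 libraries, and iXist-ChrX-Cast, 3). The deposited tables hold fragment counts per gene, in total and for the Cast and Dom genomes. Per the study's methods and the submitters' processing notes, the authors removed rRNA reads with Bowtie2 2.3.2, aligned 2 × 81-base reads with STAR 2.4.2a to N-masked mm10 (unique alignments, at most 4 mismatches), split alleles with SNPsplit and counted stranded fragments over whole transcripts with featureCounts. Fragments overlapping several genes were dropped, introns count, and a gene rich in strain variants has more allelic fragments. The deposited tables of the authors' allelic fractions of X-linked genes were used to check which column is which genome. Starts in the files count from 0 (adding 1 matched GENCODE M21 for 10944 of 22556 genes, against 1019 without) and 1 was added.

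Total counts were tested with edgeR 4.0.16 (filterByExpr, TMM, glmQLFit and glmQLFTest, R 4.3.3). Alleles were tested with edgeR on the Cast and Dom columns with library as a term, for autosomal genes with at least 10 allelic fragments in every library. P-values were adjusted by Benjamini-Hochberg over all genes tested, at 0.05. Nothing in the labels says that replicates came from separate cultures, so p-values measure the spread between these libraries. DESeq2 1.42.0 and limma 3.58.1 were alternatives, with other scalings, filters, covariates and left-out libraries. The procedures were tested on simulated counts. Intervals and floors cover counting error only, since reads have no molecular identifiers. Levels were TMM-scaled CPM, divided by the gene length in the files for CPM per kb.

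Replicate numbers are shared by the lines in the labels. Same-numbered libraries deviated together (correlations of deviations from the line means 0.378, 0.341 and 0.539 for replicates 1, 2 and 3, each above 0.1). A fit with the replicate number as a block was therefore run beside the main fit, which holds no pairing. Differently numbered libraries of one set deviated together as much (0.378, 0.48 and 0.581 for iXist-ChrX-Dom 2, 1 and 4 with iXist-ChrX-Cast 1, 2 and 3), so the correlations follow the sets and do not tell numbers apart within them. The fit with the replicate number as a block is given where it changed a call. Replicate 4 has no library of the same number in the other line.

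Proteins were translated from GENCODE M21 and aligned with Biopython. Promoter windows were taken from RefSeq (GRCm38.p6), with 143 of 165 genes matched within 1000 bases of the start in the files. The genes, clusters, marker lists and tests were chosen with earlier results of these data known. Genes named by rule were the 10 with the smallest p between lines, the 10 of highest level per kb, the 10 called genes of largest allelic ratio, any called in the interaction, 9 of known role, the 3 pairs of most alike proteins and the 5 called genes with the smallest p between replicate sets. Other names, among them the rest of the 20 allele calls, were added after their values were seen. No column of another series was present.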

Additional observations from a re-analysis of the deposited data

Results flagged for a closer look

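In the 4 iXist-ChrX-Dom libraries, 85 values of the 44 named genes (levels and Cast shares) were searched for a single library far from the other 3, by Dixon's ratio at its 95% critical value. Chance gives about 1 in 20 such groups, and 5 of the 85 stood apart. Zfp677, a KRAB gene of cluster 17A, stood at 10.8 CPM in replicate 1 against 3.36 to 4.55 CPM in the others. Zfp213 stood at 4.47 CPM in replicate 2 against 2.88 to 3.11. The Cast share of Zfp429 was 73.1% in replicate 3 against 86.5% to 88.9%, a value that still had Cast higher. The Cast share of Zfp143 was 54.6% in replicate 3 against 48.9% to 49.8%, and that of Zfp955b was 46.5% in replicate 1 against 40.8% to 41.0%. The libraries concerned were replicate 1 and replicate 3 with 2 values each and replicate 2 with 1. The cause was not tested.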

How the results depend on the processing

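Between lines, 0 Zfp genes were called, and so also with RLE or upper-quartile scaling, TMM on the other autosomes, no filter, CPM above 1 in 3 libraries or a 2-fold minimum (102 genes in all). DESeq2 called 2 (1094 genes in all against 443), the sample set as a covariate 3 (Zfp112, Zfp131 and Zfp619; 2398 in all), the replicate block 1 (1794 in all) and replicates 1 and 2 alone 2 (Zfp131 and Zfp57; 1685 in all). Leaving out 1 library gave 0 to 2, the 2 being Zfp131 and Zfp36l2 without iXist-ChrX-Cast replicate 3 (18 to 1206 in all). Between alleles, 20 were called, 12 when 30 allelic fragments were required (124 genes tested), 35 at 1.5-fold (3314 in all against 1578) and 19 on the other autosomes alone (922 in all). The same 20 were called whichever library was left out. Without TMM the median ratio of all genes moved to -0.13 from 0.01, and 8 of 20 calls had Cast higher, 18 of the 20 being shared. For the allele by line interaction, 0 became 1 with 30 fragments, 2 with limma and 1 with a sample set by allele term (Zfp945), and leaving out 1 library gave 0 to 3. Between replicate sets, 33 became 19 in iXist-ChrX-Dom alone (14 shared; 2739 in all against 4606), and leaving out 1 library gave 17 to 34 (2518 to 4501 in all), the 17 without iXist-ChrX-Cast replicate 3, 13 of them shared. The replicate block changed no other call. In the comparisons of lines, alleles and sets, no gene named for a comparison reversed its direction there. Among the 22 genes of 13A, not all of them named, 3 had the Dom allele higher without TMM, and up to 3 when 1 library was left out. Where calls were lost, the cause was not tested, apart from the fewer genes or libraries entering the fit. For 17 of the 165 genes under 10 allelic fragments in some library left no allelic test, either at low counts or, as for Zfp322a, with 0.47% of its fragments assigned to an allele.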
